A study of Mus musculus with 18 samples.

Results

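MHC class II antigen presentation genes were followed in the epidermal side of mouse back skin after loss of Notch signalling. The set was chosen by symbol and holds 8 genes (Cd74, H2-Aa, H2-Ab1, H2-Eb1, H2-DMa, H2-DMb1, H2-DMb2 and Ciita). All 8 were found among the 21011 genes of the deposited table, and all 8 passed the filter on low counts that left 16517 genes to test. H2-Ea and H2-Ea-ps, looked up as further chains, were not among those 21011 symbols, so they were not analysed.

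Each of 18 mice gave 1 RNA library. KR mice (n = 4, numbers 1, 3, 4 and 5) carried K14-CreERT, driven from the promoter of a keratin of the basal layer, and had lost Rbpj, the DNA-binding partner of Notch receptors. KR controls (n = 2, numbers 4 and 6) came from the same batch. LR mice (n = 3, numbers 1, 2 and 3) carried Lrig1-CreERT2, whose promoter belongs to a marker gene of stem cells in the upper follicle, and had also lost Rbpj; their batch held 3 controls (numbers 2, 3 and 5). KN1 mice (n = 4, numbers 1 to 4) carried a driver that their labels spell K14-CreERT1 and had lost the receptor gene Notch1, and their batch held 2 controls (numbers 1 and 7). The labels record tamoxifen at 8 weeks of age and harvest 10 weeks later for the whole series, controls included, and give no allele for any control. Hair follicles were resting (telogen), and the material was cells scraped from trypsin-treated epidermis, so keratinocytes, follicle cells and the immune cells that live among them were sequenced together.

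MHC class II molecules show peptides taken up from outside the cell to CD4+ T cells. An alpha and a beta chain pair in the endoplasmic reticulum around the invariant chain, which Cd74 encodes. In the endosome proteases trim the invariant chain to a short remnant, and the H2-DM dimer, made of the H2-DMa product and a beta chain from H2-DMb1 or H2-DMb2, swaps that remnant for peptide. Ciita encodes the class II transactivator, which binds no DNA itself and is recruited by factors sitting on the shared X and Y boxes of class II promoters. In resting epidermis the main class II-bearing cells are Langerhans cells, the resident antigen-presenting cells of the outer skin, and keratinocytes can also make class II under interferon gamma.

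Promoter sequence was shown for the members that had an entry in RefSeq's promoter table (GRCm38.p6, the same assembly as mm10), because the X and Y boxes are the known common elements of the set. An entry existed for 5 of the 8 members. Each window below runs 5′ to 3′ on the strand of its gene; the capitals mark AAC, the end of the X box motif AGCAAC, and GATTGG, the core of the Y box.
H2-Aa: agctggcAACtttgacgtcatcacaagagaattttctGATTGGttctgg
H2-Eb1: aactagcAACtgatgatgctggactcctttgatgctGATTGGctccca
H2-DMb1: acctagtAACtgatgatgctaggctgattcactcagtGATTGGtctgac
H2-DMb2: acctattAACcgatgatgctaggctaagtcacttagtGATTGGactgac
The windows lie at chr17:34287861-34287909 on the minus strand (H2-Aa) and, on the plus strand, at chr17:34305771-34305818 (H2-Eb1), chr17:34153092-34153140 (H2-DMb1) and chr17:34145121-34145169 (H2-DMb2). GATTGG ended 43, 54, 56 and 85 bases before RefSeq's start site in H2-Aa, H2-Eb1, H2-DMb1 and H2-DMb2. The spacing between AAC and GATTGG was 27 bases in H2-Aa, H2-DMb1 and H2-DMb2 and 26 bases in H2-Eb1.

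Searched over both strands of all 32851 promoters of that table, from 250 bases before to 50 after the start, AAC followed after 26 or 27 bases by GATTGG occurred in 0.51%. That spacing was set after the member sequences were seen, so its presence in 4 of the 5 is a description. GATTGG alone occurred in 16.11% of promoters, and AGCAAC in 14.79%. Of the members, H2-Eb1 held AGCAAC. H2-DMa has 2 start sites in the table, of which the second held GATTGG, and the spaced pair was found at neither. These matches describe letters in a window and say nothing about binding.

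Genes were annotated by GENCODE M21 on GRCm38. The 6 H2 genes lie together on chromosome 17, H2-DMa at 34119541 to 34139101, H2-DMb2 at 34143307 to 34151555, H2-DMb1 at 34153072 to 34160230, H2-Ab1 at 34257689 to 34269419, H2-Aa at 34282744 to 34287823 and H2-Eb1 at 34305867 to 34316674. All are protein coding and on the plus strand, apart from H2-Aa on the minus strand. Ciita lies on chromosome 16 (10480059 to 10528418, plus strand) and Cd74 on chromosome 18 (60803848 to 60812652, plus strand). The strand setting of the counting is not known, and some exons of H2-DMa overlap Brd2 and some of Ciita overlap Dexi on the other strand, so a share of those counts may belong to the neighbour. H2-DMb1 and H2-DMb2 transcripts were 94.6% identical over 1219 aligned bases, with a longest identical run of 221 bases, so reads may have been split or lost between them and their separate values are uncertain.

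Library totals ran from 8076316 to 21216169 counts, the deepest being KR control 4 and KN1 control 1, for which the labels name 2 files from 1 mouse sequenced on separate occasions and the table holds 1 column. Another 3 controls (KR control 6, LR control 5 and KN1 control 7) have a second name in the labels, which do not say what it marks, and are called second-named. Notch1 checked the KN1 labels: its log2 fold change was -0.91 ± 0.19 (SE, edgeR adjusted p = 0.0251). Rbpj, counted over the whole gene, which does not resolve a deleted exon, had -0.47 in KR (adjusted p = 0.135) and -0.66 in LR (adjusted p = 0.0659), neither past the threshold.

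Levels of different genes were set per kilobase of all annotated exons of a gene joined. On that length the invariant chain was the most abundant member and the transactivator the least. The order depends on the length used: H2-Ab1 has 2568 bases of joined exon, while its longest protein-coding transcript has 1212 bases. In the 7 controls Cd74 averaged 235 ± 133 CPM per kilobase (SD, n = 7), H2-Ab1 119 ± 65.4 and H2-Eb1 97.7 ± 53.2. H2-Aa, whose product pairs with that of H2-Ab1, stood at 33.7 ± 17.6 CPM per kilobase over 3798 bases. The part of the length in that gap was not tested. The editing chains followed at 16.6 ± 7.93 for H2-DMb1, 7.75 ± 4.10 for H2-DMa and 6.45 ± 2.84 for H2-DMb2, and Ciita had 0.993 ± 0.403 CPM per kilobase. Elsewhere CPM, which scales counts to the library total and its TMM factor, is compared within a gene.

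**Figure D1:**
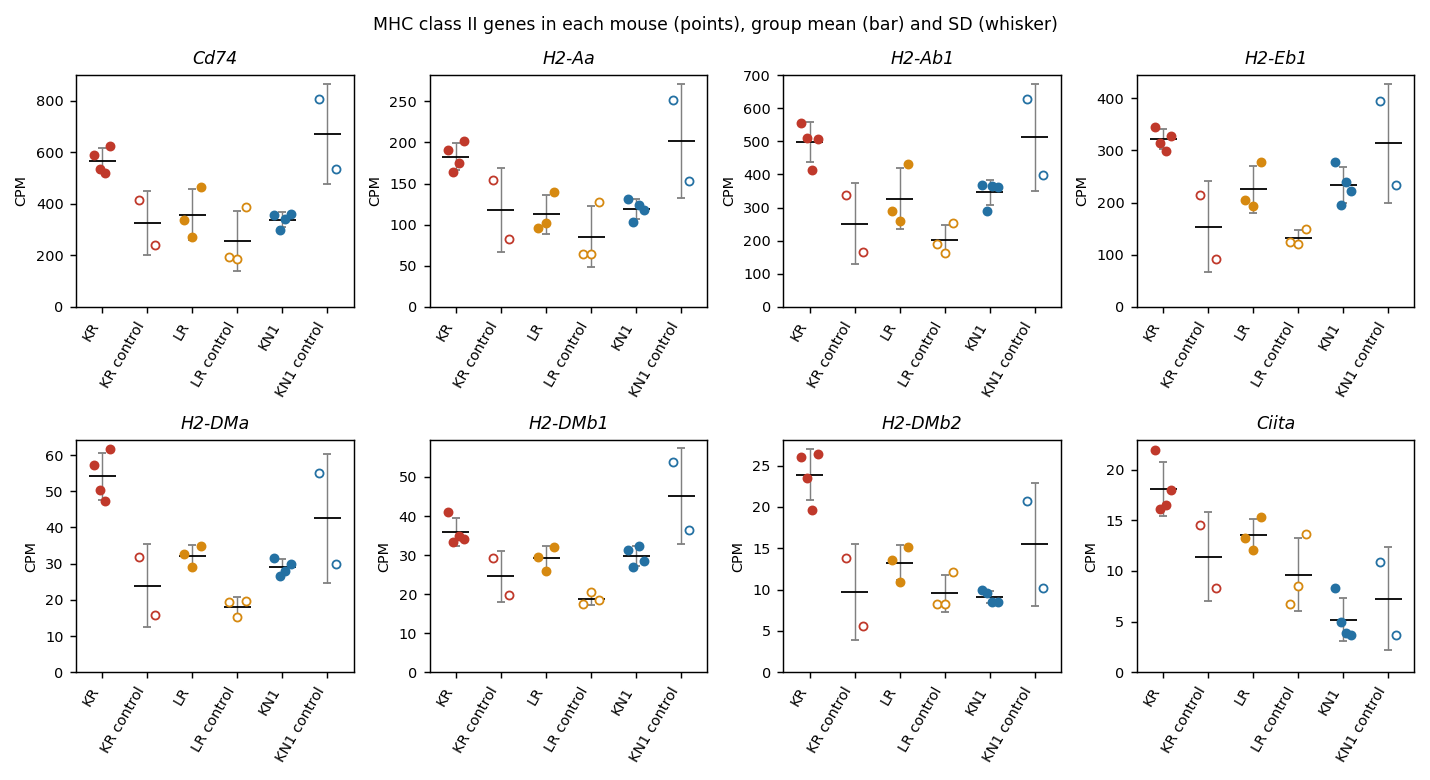
Level of each class II gene in CPM (y axis, from 0) in every mouse, by group along the x axis, with mutants as filled and controls as open points, a bar at the group mean and whiskers of 1 SD. The 4 KR mice sit above both KR controls for all 8 genes, and KN1 control 1 is the highest KN1 mouse for all 8.

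In KR skin each of the 8 class II genes was higher in every mutant than in either control, and 2 genes of peptide editing passed the test. H2-DMa rose 2.25-fold and H2-DMb2 rose 2.43-fold, while H2-Eb1 and H2-Ab1 missed the threshold at about the same size. Of the 8 members, 2 were called at an adjusted p under 0.05 over all genes, against 1.6% of the 16517 genes. With no adjustment 7 had a p under 0.05, as did 22.9% of all genes, and DESeq2 called 4 members and 1086 genes in all. Every KR mouse was above both controls for 8 of 8 members, an ordering that 19% of all tested genes also showed. The median log2 fold change was 0.89 over the members and 0.04 over all tested genes. The test was edgeR's quasi-likelihood F test with Benjamini-Hochberg adjustment, here and for every adjusted p below.

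H2-DMa and H2-DMb2, the members that passed, are parts of the peptide editor. H2-DMa had 57.2, 50.3, 47.4 and 61.8 CPM in KR 1, 3, 4 and 5, against 32.0 and 15.9 CPM in KR controls 4 and 6. The groups did not overlap, and the 2 controls differed from each other by about as much as the higher one did from the lowest KR mouse. The log2 fold change of H2-DMa was 1.17 ± 0.25 (SE, adjusted p = 0.0344). H2-DMb2 had 26, 23.5, 19.6 and 26.3 CPM in the same KR mice and 13.8 and 5.59 CPM in the controls, again without overlap, a log2 fold change of 1.28 ± 0.32 (adjusted p = 0.0485). H2-DMb1, its near copy, had 41.1, 33.5, 35.0 and 34.1 CPM in KR mice and 29.2 and 19.8 CPM in the controls. KR 1 was the highest and KR control 6 the lowest, and the log2 fold change of H2-DMb1 was 0.54 ± 0.18 (adjusted p = 0.105).

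The peptide-binding chains had the same order of mice without passing. H2-Eb1, the beta chain of I-E, had 345, 313, 300 and 327 CPM in KR mice, against 215 and 92.6 CPM in KR controls 4 and 6 (log2 fold change 1.06 ± 0.27, adjusted p = 0.056). H2-Ab1, the beta chain of I-A, had 556, 511, 414 and 508 CPM in KR mice and 338 and 165 CPM in the controls (0.98 ± 0.28, adjusted p = 0.0699). For both chains the gap between the controls was wider than that between KR control 4 and the mean of the KR mice. H2-Aa, the alpha chain of I-A, had 191, 164, 175 and 201 CPM in KR mice and 154 and 82.0 CPM in the controls, and its lowest KR mouse lay just above KR control 4 (0.63 ± 0.29, adjusted p = 0.208).

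Cd74 had 591, 536, 521 and 626 CPM in KR mice and 415 and 239 CPM in the controls (log2 fold change 0.80 ± 0.295, adjusted p = 0.131). Ciita, the transactivator, had 21.96, 16.14, 16.48 and 17.96 CPM in KR mice and 14.5 and 8.29 CPM in the controls (0.66 ± 0.38, adjusted p = 0.306). Among KR mice no single animal led: KR 1 and KR 5 were each the highest for 4 members, and KR 4 was the lowest for 5. KR control 6, second-named, was below KR control 4, merged, for all 8.

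The KR calls rested on single libraries. Neither gene was called without KR 1, without KR 3, without KR 5 or without KR control 6. Mice of the other batches enter through the shared estimate of spread: 1 member was called without LR 1, LR 2, LR control 3 or any single KN1 mutant, 4 without LR 3 and 5 without LR control 5. The calls over all genes, 264 with all mice, moved as well, to 5 to 65 in the cases with no member called, to 123 to 213 in those with 1, to 438 without LR 3 and to 1353 without LR control 5. Without KR control 6, which leaves 1 control, H2-DMa had 0.73 (adjusted p = 0.409) and H2-DMb2 0.77 (adjusted p = 0.472), and the median of the members was 0.48. Without KR control 4 these were 1.77, 2.09 and 1.42.

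**Figure D2:**
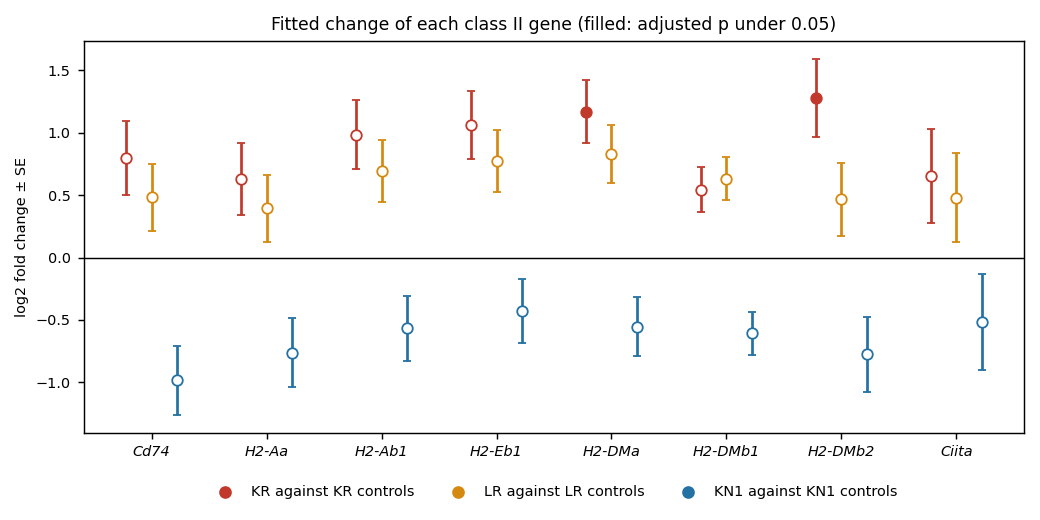
Log2 fold change of each class II gene (x axis) against its own batch controls, with SE, for KR, LR and KN1; filled points have an adjusted p under 0.05. All KR and LR values are above 0 and all KN1 values below 0, and H2-DMa and H2-DMb2 in KR are the filled points.

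In LR skin, with Rbpj lost from the Lrig1 compartment, all 8 log2 fold changes were positive and smaller in the median, at 0.56 over the members and -0.00 over all tested genes. None of the 8 was called by edgeR, against 1.12% of all genes, while 4 had an unadjusted p under 0.05, as did 15.5% of all genes, and DESeq2 called 2 members and 547 genes in all. Every LR mouse was above every control for 4 members, H2-Ab1, H2-Eb1, H2-DMa and H2-DMb1, against 10.3% of all tested genes.

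H2-DMa had 32.6, 29.0 and 35.0 CPM in LR 1, 2 and 3, against 19.5, 15.1 and 19.7 CPM in LR controls 2, 3 and 5 (log2 fold change 0.83 ± 0.23, adjusted p = 0.091). H2-DMb1 had 29.5, 25.9 and 32.1 CPM in LR mice and 17.5, 20.4 and 18.4 CPM in the controls (0.63 ± 0.17, adjusted p = 0.0801). In both genes the controls lay close together and well below the mutants, yet the calls were missed. H2-Eb1 had 205, 194 and 277 CPM in LR mice and 125, 121 and 149 CPM in the controls (0.77 ± 0.25, adjusted p = 0.137). H2-Ab1 had 290, 258 and 432 CPM in LR mice and 188, 164 and 254 CPM in the controls (0.69 ± 0.25, adjusted p = 0.187); LR 2 lay just above LR control 5.

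The remaining members overlapped between the groups because of 1 control. Cd74 had 339, 270 and 466 CPM in LR mice and 192, 187 and 390 CPM in LR controls 2, 3 and 5 (0.48 ± 0.27, adjusted p = 0.407), and H2-Aa had 96.5, 101 and 140 CPM against 64.0, 64.5 and 128 CPM (0.39 ± 0.27, adjusted p = 0.51). In both, LR control 5 was above 2 of the 3 LR mice. H2-DMb2 had 13.62, 10.95 and 15.19 CPM in LR mice and 8.28, 8.25 and 12.1 CPM in the controls (0.47 ± 0.29, adjusted p = 0.459), and Ciita had 13.2, 12.1 and 15.3 CPM and 6.74, 8.47 and 13.7 CPM (0.48 ± 0.36, adjusted p = 0.549). LR 3 was the highest LR mouse for all 8 members and LR 2 the lowest for 7. LR control 5, second-named, was the highest control for 7 members, and the exception was H2-DMb1. Without it the median of the members was 0.85, with 0 called by edgeR. Leaving out KR control 4 or KR control 6, both of another batch, gave 1 call each, of 185 and 182 genes called in all.

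In KN1 skin, with Notch1 lost, all 8 log2 fold changes were negative, with a median of -0.59 over the members and 0.02 over all tested genes. None was called by edgeR, against 1.97% of all genes, while 6 had an unadjusted p under 0.05, as did 18.5% of all genes, and DESeq2 called 2 members and 820 genes in all. Every KN1 mouse was below both controls for 5 members, Cd74, H2-Aa, H2-Ab1, H2-DMb1 and H2-DMb2, against 14.3% of all tested genes.

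Cd74 had 359, 298, 340 and 361 CPM in KN1 1, 2, 3 and 4, against 809 and 534 CPM in KN1 controls 1 and 7, a log2 fold change of -0.98 ± 0.28 (adjusted p = 0.0748). The 4 mutants were tight and both controls lay above them. H2-DMb1 had 31.2, 26.9, 32.4 and 28.4 CPM in KN1 mice and 53.9 and 36.4 CPM in the controls (-0.61 ± 0.17, adjusted p = 0.0777). H2-Aa had 131, 103, 124 and 118 CPM in KN1 mice and 251 and 153 CPM in the controls (-0.76 ± 0.28, adjusted p = 0.155), and H2-Ab1 had 367, 290, 365 and 362 CPM and 627 and 398 CPM (-0.57 ± 0.26, adjusted p = 0.253). In all 3, KN1 control 7 lay nearer to the mutants than to KN1 control 1.

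H2-DMb2 had 9.90, 9.61, 8.44 and 8.50 CPM in KN1 mice and 20.7 and 10.2 CPM in the controls (-0.78 ± 0.30, adjusted p = 0.175). H2-Eb1 had 278, 195, 239 and 222 CPM in KN1 mice and 394 and 233 CPM in the controls (-0.43 ± 0.26, adjusted p = 0.387), and H2-DMa had 31.56, 26.62, 28.10 and 29.99 CPM and 55.15 and 29.84 CPM (-0.56 ± 0.24, adjusted p = 0.216). KN1 control 7 lay inside the range of the KN1 mice for H2-Eb1 and H2-DMa. Ciita had 8.29, 4.98, 3.88 and 3.68 CPM in KN1 mice and 10.9 and 3.69 CPM in the controls (-0.52 ± 0.39, adjusted p = 0.494), so that the control mean there was an average of 1 high and 1 low mouse. KN1 control 1 was above KN1 control 7 for all 8 members. Without KN1 control 1 the median was -0.19 and Ciita reversed to 0.49, and without KN1 control 7 the median was -0.995. Without LR control 5 edgeR called 1 member, Cd74, of 640 genes called in all.

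**Figure D3:**
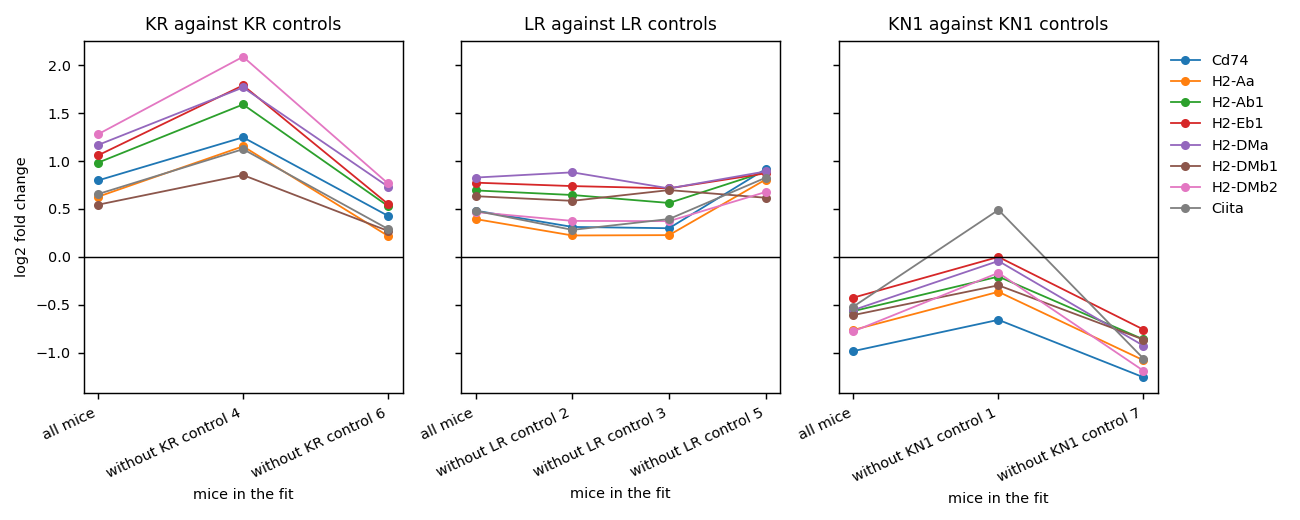
Fitted log2 fold change of each class II gene (y axis) with all mice and with each control of its own batch left out in turn (x axis), for KR, LR and KN1. The KR values shrink without KR control 6 and grow without KR control 4, and the KN1 values move to between -0.66 and 0.49 without KN1 control 1.

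The fitted changes were positive in KR and LR and negative in KN1, and the difference itself was tested in the same fit. Each mutant had its own batch and controls, so the gene lost cannot be told apart from the batch here. KR minus KN1 was positive for all 8 members, between 1.15 for H2-DMb1 and 2.06 for H2-DMb2 on the log2 scale. H2-DMa had the smallest adjusted p, with a difference of 1.72 ± 0.34 (SE, adjusted p = 0.168). No member was called by edgeR, against 0% of all genes; all 8 had an unadjusted p under 0.05, as did 7.57% of all genes, and DESeq2 called 6 members and 38 genes in all. Without KR control 4, which leaves KR control 6 alone, the median KR change of the members was 1.42.

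LR minus KN1 was likewise positive for all 8, from 1.00 for Ciita to 1.47 for Cd74, and its smallest adjusted p was 0.0858 for H2-DMb1 (1.24 ± 0.24). EdgeR called none, against 0.00605% of all genes; 7 had an unadjusted p under 0.05, as did 7.04% of all genes, and DESeq2 called 2 members and 67 genes in all. Leaving out KR control 6 or LR control 5 gave 1 call each, of 10 and 13 genes called in all. KR minus LR ran from -0.09 for H2-DMb1 to 0.81 for H2-DMb2, with every adjusted p at 0.98 or above. No member was called there by either tool, against 0.00605% of all genes by edgeR, and 0 had an unadjusted p under 0.05. The KR and LR changes were not shown to differ, and with SE of 0.25 to 0.51 differences of that order could not be resolved.

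The 7 controls were themselves far apart, also within the KR and KN1 batches. The highest of the 7 controls exceeded the lowest by 4.33-fold for Cd74, 4.25-fold for H2-Eb1, 3.94-fold for Ciita, 3.92-fold for H2-Aa, 3.83-fold for H2-Ab1, 3.71-fold for H2-DMb2, 3.64-fold for H2-DMa and 3.08-fold for H2-DMb1. KN1 control 1 was the highest of all 7 for every member but Ciita, for which KR control 4 was. Cd74 averaged 569 ± 48.7 CPM in KR mice (SD, n = 4) and 327 ± 124 CPM in their controls (n = 2), 359 ± 99.7 CPM in LR mice (n = 3) and 256 ± 116 CPM in theirs (n = 3), and 340 ± 28.9 CPM in KN1 mice (n = 4) and 672 ± 195 CPM in theirs (n = 2). Ordered from the highest, the group means ran KN1 controls, KR, LR, KN1, KR controls and LR controls. KN1 controls and KR mice overlapped, KR and LR did not, and the 4 groups after KR overlapped each with the next. Ciita averaged 18.1 ± 2.67 CPM in KR mice and 11.4 ± 4.42 CPM in their controls, 13.5 ± 1.63 CPM in LR mice and 9.63 ± 3.61 CPM in theirs, and 5.21 ± 2.14 CPM in KN1 mice and 7.27 ± 5.07 CPM in theirs. Its order from the highest was KR, LR, KR controls, LR controls, KN1 controls and KN1. Here KR was clear of LR, and each later neighbour overlapped the one before. Levels set across batches cannot be told apart from the batch.

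By Xist and Y-linked counts, every group held both sexes. In each batch the female control was the higher one, above every male control of its batch for 8 of 8 members in KR controls, 7 of 8 in LR controls and 8 of 8 in KN1 controls. Among the mutants that order held for 0 members in KR, 1 in LR and 2 in KN1. In the controls sex could not be told apart from being second-named in the KR and KN1 batches, where the male was the second-named mouse; in the LR batch it was the female. With a covariate for sex, edgeR called 4 members in KR, of 531 genes in all, and 1 in KN1, of 397.

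Ratios between members were taken within each mouse, where library size cancels. H2-DMa over H2-Aa was 0.296 ± 0.0172 in KR mice (SD, n = 4) and 0.200 ± 0.0098 in KR controls (n = 2), without overlap. In KN1 mice it was 0.245 ± 0.0141, against 0.208 ± 0.0173 in the controls, also without overlap and also higher, although both genes had lower levels there. In LR the ratio of H2-DMa to H2-Aa overlapped, at 0.291 in mutants and 0.231 in controls. H2-DMb2 over H2-DMb1 was 0.667 ± 0.0903 in KR mice and 0.376 ± 0.134 in the controls, without overlap. It was lower than in controls, with overlap, in LR (0.453 against 0.511) and KN1 (0.309 against 0.333). Cd74 over H2-Ab1 was 0.984 ± 0.0399 in KN1 mice and 1.32 ± 0.0361 in the controls, without overlap. It overlapped in KR (1.15 against 1.34) and in LR (1.10 against 1.23). H2-Eb1 over H2-Ab1 overlapped in every comparison. Ciita per 1000 CPM of Cd74 was 31.9 ± 3.73 in KR mice and 34.9 ± 0.247 in KR controls, 38.8 ± 5.96 in LR mice and 38.5 ± 5.92 in LR controls, and 15.3 ± 5.89 in KN1 mice and 10.2 ± 4.60 in KN1 controls. In exact two-sided permutation tests, 15 in all over 5 ratios, the non-overlapping ones had p = 0.133, the smallest that 4 mice against 2 allow, and no adjusted p was below 0.5.

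Across the 18 mice most members moved closely with each other, given here as a description over libraries that share batch and groups. Pearson's r of log2 CPM was 0.98 between Cd74 and H2-Aa and 0.98 between H2-Ab1 and H2-Eb1, the highest pairs. It was 0.68 between H2-DMb1 and H2-DMb2 and lowest, at 0.19, between H2-DMb1 and Ciita. The mean standardised level of the 8 members includes each member itself, which raises its r. Against that mean, r was highest for H2-DMa (0.97) and between 0.88 and 0.96 for the other H2 genes and Cd74. Ciita was the exception at 0.54, rank 481 of the 16517 tested genes. After group means were subtracted Ciita had 0.84, beside 0.83 for H2-DMb1.

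The non-members most like the set over the 18 mice were Alox5ap (r = 0.95), which encodes the protein that feeds arachidonic acid to 5-lipoxygenase, Ctss (0.94), the protease that trims the invariant chain, the unnamed transcript WI1-1993I8.1 (0.93), Csf1r (0.89), the receptor for interleukin 34 and CSF1, and Dok3 (0.89), an adaptor of myeloid and B cells. After group means were subtracted these had 0.89, 0.85, 0.84, 0.82 and 0.87. None of these 5 was called in any comparison. Alox5ap had 14.1 ± 2.73 CPM in KR mice and 7.37 ± 2.90 CPM in the controls (log2 fold change 0.91, adjusted p = 0.112), and 8.40 ± 1.25 CPM in KN1 mice and 12.9 ± 6.64 CPM in the controls (-0.64, adjusted p = 0.259). Ctss had 19.7 ± 2.71 CPM in KR mice and 9.93 ± 3.72 CPM in the controls (0.98, adjusted p = 0.0975), and 11.2 ± 3.22 CPM in KN1 mice and 18.2 ± 7.63 CPM in the controls (-0.71, adjusted p = 0.209).

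**Figure D4:**
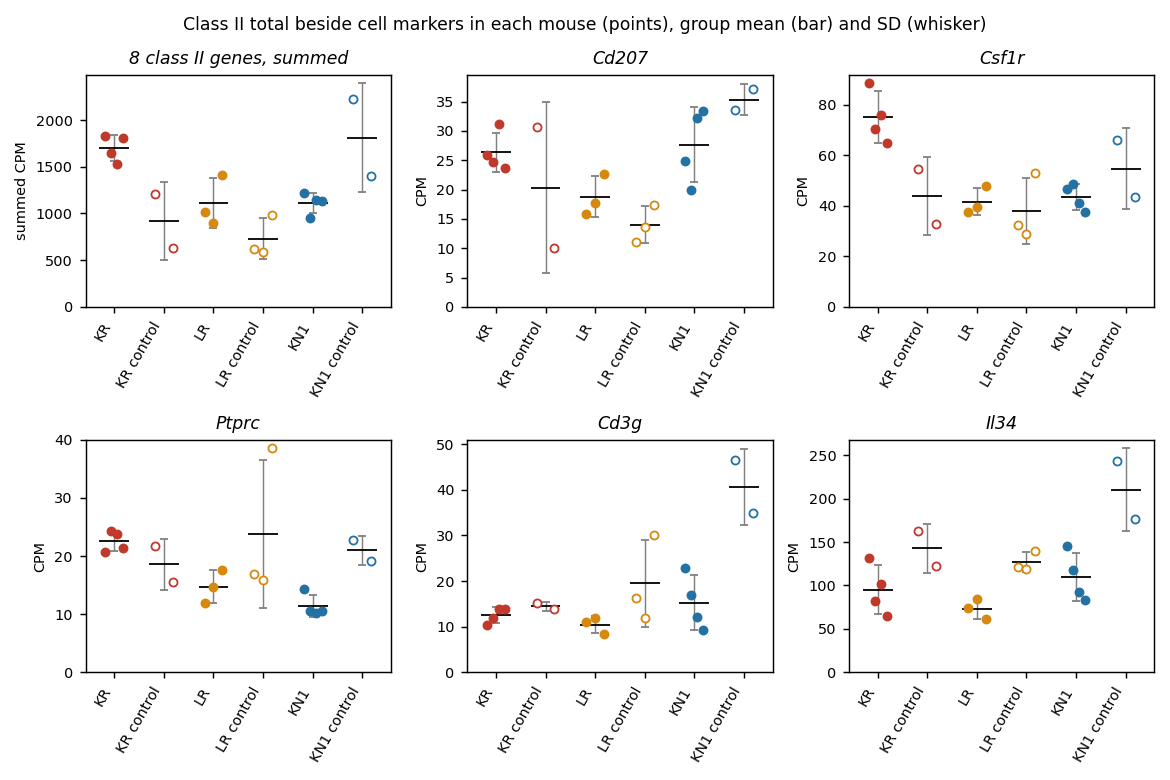
Summed CPM of the 8 class II genes and CPM of Cd207, Csf1r, Ptprc, Cd3g and Il34 (y axes, from 0) in every mouse by group, with mutants filled, controls open, a bar at the mean and whiskers of 1 SD. The class II sum runs from 1529 to 1828 CPM in KR mice and from 628 to 1211 CPM in KR controls, and Cd207 overlaps between those groups.

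Markers of the cells that carry class II were read beside these values. In bulk skin, fewer cells of a type and less RNA per cell cannot be told apart. Counts at an unadjusted p under 0.05 in these lists stand beside shares over all tested genes of 22.9%, 15.5% and 18.5% for KR, LR and KN1, and beside 1086, 547 and 820 genes that DESeq2 called in all. The class II sum was 1529 to 1828 CPM in KR mice and 628 to 1211 CPM in KR controls, 901 to 1413 CPM in LR mice and 588 to 985 CPM in LR controls, and 955 to 1215 CPM in KN1 mice and 1397 to 2222 CPM in KN1 controls. The summed 14 Langerhans and dendritic cell markers ran from 471 to 517 CPM in KR mice and 324 to 347 CPM in the controls, from 341 to 493 CPM in LR mice and 278 to 311 CPM in the controls, and from 452 to 601 CPM in KN1 mice and 516 to 587 CPM in the controls. A large part of these sums was Epcam, with 241 of 471 CPM in KR 1 and 190 of 347 CPM in KR control 4. Epcam is also a gene of follicle epithelium, so the sums do not measure Langerhans and dendritic cells alone. Of the 13 tested, 1 rose in KR, Mfge8 (115 ± 10.7 CPM in KR mice, 52.3 ± 5.87 CPM in the controls, log2 fold change 1.14 ± 0.28, adjusted p = 0.048), which encodes a secreted protein that helps take up dying cells. In KR 7 of the 13 had an unadjusted p under 0.05 and DESeq2 called 3. Every KR mouse was above both controls for 9 of them, as for 19% of all tested genes. EdgeR called 0 in LR (5 with an unadjusted p under 0.05, 2 by DESeq2) and 0 in KN1 (0 and 0). Positive log2 fold changes numbered 13 in KR, 10 in LR and 5 in KN1, with medians of 0.81, 0.47 and -0.17.

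Cd207, the langerin gene that defines Langerhans cells, had 26.4 ± 3.29 CPM in KR mice and 20.3 ± 14.6 CPM in the controls (log2 fold change 0.36, adjusted p = 0.512). It had 18.8 ± 3.52 CPM in LR mice and 14.0 ± 3.19 CPM in the controls (0.42, adjusted p = 0.541), and 27.6 ± 6.38 CPM in KN1 mice and 35.4 ± 2.64 CPM in the controls (-0.36, adjusted p = 0.563). Its differences had the sign of the class II genes in all 3 comparisons and did not pass in any. Epcam, an adhesion gene of Langerhans cells and of follicle epithelium, had 0.28 in KR, 0.47 in LR and 0.09 in KN1, with no call. Ccr7, Ccl22 and Runx3 had 2.62, 1.68 and 1.01 in KR (adjusted p = 0.0682, 0.0696 and 0.0642).

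Other immune markers did not run with the class II genes in every batch. The 6 all-leukocyte genes summed to 177 to 196 CPM in KR mice and 109 to 169 CPM in the controls, 93.2 to 109 CPM in LR mice and 74.2 to 180 CPM in the controls, and 99.5 to 124 CPM in KN1 mice and 140 to 214 CPM in the controls. In LR the overlap came from LR control 5, at 180 CPM beside 81.9 and 74.2 CPM in LR controls 2 and 3. Ptprc had 38.5 CPM in LR control 5 and 16.9 and 15.9 CPM in LR controls 2 and 3. EdgeR called 0 of 6 in each mutant, with 2, 1 and 5 at an unadjusted p under 0.05 and 0, 0 and 2 by DESeq2 in KR, LR and KN1. Ptprc, the pan-leukocyte CD45 gene, had a log2 fold change of 0.27 in KR (adjusted p = 0.586); the LR and KN1 values were -0.70 (adjusted p = 0.212) and -0.88 (adjusted p = 0.108). Of 7 tested macrophage and monocyte markers edgeR called 0 in any mutant (4, 0 and 2 at an unadjusted p under 0.05, where all genes had 22.9%, 15.5% and 18.5%, and 1, 0 and 0 by DESeq2). Adgre1, the macrophage F4/80 gene, had 10.2 ± 2.47 CPM in KR mice and 7.28 ± 3.16 CPM in the controls.

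Of 9 T cell markers, 3 fell in KN1, the CD3 chain genes Cd3g (-1.41 ± 0.32) and Cd3d (-1.29 ± 0.29) and the gamma-delta receptor gene Trdc (-1.59 ± 0.36; adjusted p = 0.0317, 0.0317 and 0.0343). The 9 summed to 78.0 to 102 CPM in KN1 mice and 169 to 188 CPM in the controls. In KR the sum was 143 to 262 CPM, against 64.2 to 146 CPM in the controls, and in LR 52.1 to 124 CPM, against 118 to 160 CPM. EdgeR called 0 T cell markers in KR (0 at an unadjusted p under 0.05, 0 by DESeq2) and 0 in LR (5 and 0). Melanocyte genes ran the other way in KN1: all 5 were higher in every KN1 mouse than in both controls. The same ordering was shown by 2273 of the 16517 tested genes. The melanocyte log2 fold changes had a median of 1.46, with sums of 50.8 to 74.8 CPM in KN1 mice and 26.9 to 29.0 CPM in the controls. Of these Pmel, a melanosome protein gene, rose (1.01 ± 0.25, adjusted p = 0.0423), 3 had an unadjusted p under 0.05 and DESeq2 called 1. Krt14, the basal keratin, rose in KR (0.82, adjusted p = 0.0211). The part of cell composition in the class II values was not tested.

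Genes around the class II pathway were counted from lists made for their roles. Of 2 other class II chains tested, H2-Oa and H2-Ob, which form the H2-DO dimer that restrains H2-DM, edgeR called 0 in any mutant (1, 0 and 0 at an unadjusted p under 0.05, 0 by DESeq2). H2-Ob had 4.10 ± 1.06 CPM in KR mice and 1.50 ± 1.23 CPM in the controls (log2 fold change 1.38, adjusted p = 0.131). Of 15 genes of processing and turnover, 0 rose and 2 fell in KR, 1 rose and 0 fell in LR, and 0 rose and 1 fell in KN1. Over all genes edgeR called 1.6%, 1.12% and 1.97%. At an unadjusted p under 0.05 the list had 7, 5 and 7 genes, against 22.9%, 15.5% and 18.5% of all genes. DESeq2 called 4, 2 and 3 of the list. The genes that fell in KR were March8, a ubiquitin ligase that removes membrane proteins from the cell surface (-0.59 ± 0.13, adjusted p = 0.0369), and Lamp2, a lysosomal membrane protein (-0.83 ± 0.20, adjusted p = 0.0476). Lgmn, the asparaginyl endopeptidase that can cut the invariant chain, rose in LR, with 30.7 ± 7.05 CPM in LR mice and 16.9 ± 2.11 CPM in the controls (0.86 ± 0.17, adjusted p = 0.0153). Lamp1 fell in KN1 (-0.52 ± 0.13, adjusted p = 0.0475).

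Among factors listed for the regulation of class II genes or of Ciita, edgeR made no call. Of 11, including Rfx5, Rfxap, Rfxank and the 3 NF-Y genes that bind X and Y boxes, edgeR called 0 in any mutant (5, 1 and 0 at an unadjusted p under 0.05, and 1, 0 and 0 by DESeq2, in KR, LR and KN1, where all genes had 22.9%, 15.5% and 18.5% at the same unadjusted p). Spi1, the myeloid factor PU.1, had 21.02 ± 1.94 CPM in KR mice and 8.99 ± 4.56 CPM in the controls (log2 fold change 1.21, adjusted p = 0.0831). Irf8, a factor of dendritic and other myeloid cells, had 1.11 (adjusted p = 0.147), Creb1, which also binds class II promoters, -0.57 (adjusted p = 0.0964), and Prdm1, known to silence Ciita in plasma cells, -0.73 (adjusted p = 0.119) in KR.

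Of 15 tested genes of the interferon gamma axis edgeR called 0 in any mutant (3, 3 and 0 at an unadjusted p under 0.05, against 22.9%, 15.5% and 18.5% of all genes, and 1, 0 and 0 by DESeq2), and the medians for KR, LR and KN1 were -0.06, -0.06 and 0.19. Socs1, a feedback inhibitor of the pathway, had 22.2 ± 9.83 CPM in KR mice and 7.54 ± 1.62 CPM in the controls (1.55, adjusted p = 0.149), while the interferon-induced GTPase genes Gbp2 and Iigp1 had -0.61 and -1.79, and the kinase gene Jak1 -0.48. Ifng itself was too low to test. MHC class I presentation, a separate route for peptides made inside the cell, had 0 of 20 genes called in any mutant (8, 9 and 5 at an unadjusted p under 0.05, against the same shares of all genes, and 2, 3 and 0 by DESeq2), with medians of 0.22, 0.29 and 0.04. H2-Q7, a class Ib heavy chain, had 727 ± 102 CPM in LR mice and 420 ± 80.6 CPM in the controls (0.79, adjusted p = 0.0501), and the peptide transporter gene Tap2 had 0.72 in KR (adjusted p = 0.0761) and 0.69 in LR (adjusted p = 0.0915).

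Genes through which skin and Langerhans cells address each other included Icosl and Tslp, both past the threshold. Icosl, a costimulatory ligand for T cells, was the 1 of 5 tested costimulation genes to rise in LR, with 26.3 ± 15.4 CPM in LR mice and 4.49 ± 1.25 CPM in the controls (log2 fold change 2.54 ± 0.44, adjusted p = 0.0071). It had 0.72 in KR (adjusted p = 0.361) and 1.52 in KN1 (adjusted p = 0.123). Of 5 Langerhans cell ligands, Tslp, an epithelial cytokine that acts on dendritic cells, rose in KR (5.58 ± 0.58, adjusted p = 0.000128), LR (2.58 ± 0.42, adjusted p = 0.0041) and KN1 (2.19 ± 0.52, adjusted p = 0.0378). Il34, the keratinocyte cytokine on which Langerhans cells depend, had 95.1 ± 28.5 CPM in KR mice and 143 ± 28.4 CPM in the controls (-0.59, adjusted p = 0.171). It had 72.9 ± 11.7 CPM in LR mice and 127 ± 11.5 CPM in the controls (-0.80, adjusted p = 0.116), and 110 ± 27.9 CPM in KN1 mice and 210 ± 47.8 CPM in the controls (-0.94, adjusted p = 0.0529). Every LR and every KN1 mouse was below its controls for Il34. That ordering was shown by 1534 of the 16517 tested genes in LR and by 2361 in KN1. The class II genes had positive changes in LR and negative ones in KN1, and a link to Il34 was not tested.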

How the data were processed

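The authors deposited unnormalized counts, 1 column for each of 18 mice. Per the submitters' processing notes, STAR, HTSeq and DESeq2 were used with build mm10; versions, annotation and the strand setting are not given in the sources used here. GENCODE M21 lists 15418 of the deposited symbols. Totals ran from 8076316 to 21216169 counts. The fit used edgeR 4.0.16 (R 4.3.3): TMM factors, filterByExpr (16517 of 21011 genes), 6 group means over 18 mice, robust quasi-likelihood F tests, two-sided, Benjamini-Hochberg adjustment over all tested genes at 0.05. The common biological coefficient of variation was 0.225. Groups of 2 controls take their spread from all mice. SE came from the F statistic, CPM from the deposited counts, and log2 CPM for correlations used a prior count of 2. The scripts were tested on simulated data. Samples are separate mice; paired libraries of a group differed by at least 6.41 in chi-square per degree of freedom, so each counts once. The members, lists and tests were chosen with earlier results of these data known.

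Named were all 8 members, up to 4 genes of each other list with the smallest adjusted p in any comparison, genes that define a cell type, the non-members most like the set, Rbpj and Notch1; Rfx5, Rfxap, Rfxank, the NF-Y genes, H2-Oa and H2-Eb2 are named as list contents. H2-Eb2 was too low to test, and not every gene chosen this way is reported here. Further marker lists, by edgeR: keratinocyte, 1 called in KR, 0 in LR and 0 in KN1 (3, 2 and 1 at an unadjusted p under 0.05; 2, 2 and 0 by DESeq2); melanocyte, 0, 0 and 1 (0, 1 and 3; 0, 0 and 1); fibroblast, endothelial and mast cell, 0 in any mutant (in KR, LR and KN1 at an unadjusted p under 0.05, fibroblast 1, 0 and 0, endothelial 1, 1 and 0, mast cell 0; 0 by DESeq2). Alternatives were: DESeq2 1.42.0; scaling by RLE; filters of none or 1 CPM on average; separate fits per batch; pooling the 7 controls; a replicate block in LR; covariates for the second-named share or sex; and leaving out the 3 second-named controls or each mouse.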

Additional observations from a re-analysis of the deposited data

Results flagged for a closer look

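H2-Ab1 in KN1 2 stood apart from its group: it had 290.2 CPM, while KN1 1, 3 and 4 lay between 362 and 367 CPM. It is the lowest of 4 values, and its gap to the nearest exceeds Dixon's limit. In the 16 sets of 4 mice examined, 1 in 20 would be picked out by chance. KN1 2 was also the lowest KN1 mouse for 6 of the 8 members, and both KN1 controls were above it for H2-Ab1.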

How the results depend on the processing

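Direction held for all 8 members in KR under each of the 27 alternatives. The count of members called did not hold. In KR it was 2, of 264 genes called in all. It became 4 with DESeq2 (1086 in all), 4 with a covariate for sex (531) and 1 with no filter on low counts (218). It was 0 with separate fits per batch (672 in all) and with the second-named share as covariate (12). Without the 3 second-named controls, which leaves KR control 4 alone, the median of the members was 0.48. Leaving out single mice gave 0 to 5. H2-DMa kept its call in 20 alternatives and H2-DMb2 in 12. In LR the count was 0, of 185 genes called in all. It became 2 with DESeq2 (547 in all) and 4 without the 3 second-named controls (136). Leaving out single mice gave 0 to 1. In KN1 it was 0, of 325 genes called in all. It became 2 with DESeq2 (820 in all) and 1 with the covariate for sex (397). Without the 3 second-named controls, which leaves KN1 control 1 alone, the median of the members was -0.99. Leaving out single mice gave 0 to 1. KR minus KN1 had 0, and 6 with DESeq2 (38 in all) and 2 with all 7 controls pooled (134). Leaving out single mice moved it only without KR control 4, which leaves KR control 6 alone. LR minus KN1 had 0, and 2 with DESeq2 (67 in all) and 1 with controls pooled (692). Its count without the 3 second-named controls is not given, because KN1 control 1 is then alone. Leaving out single mice gave 0 to 1. KR minus LR had 0 throughout.

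Pooling all 7 controls, which sets mutants against other batches, reversed Cd74 (-0.14) and H2-Aa (-0.19) in LR, and H2-Ab1 (0.19), H2-Eb1 (0.30), H2-DMa (0.11) and H2-DMb1 (0.084) in KN1; it left medians of 0.16 in LR and -0.01 in KN1. Ciita in KN1 reversed to 0.49 without KN1 control 1; without single mice it ran from -1.06 to 0.49. The cause of these changes was not tested. LR and its controls share the numbers 2 and 3, and same-numbered mice had r of 0.07 and -0.08 over 16517 genes. So few pairs cannot show whether the numbers pair mice, and the main fit did not pair them. With a replicate block 0 members were called, of 116 genes in all, and the median was 0.88. With 2 controls in KR and in KN1, 1 mouse sets the size of the estimates. Counts of all genes called ran from 5 to 1353 in KR, 60 to 246 in LR and 2 to 640 in KN1 when single mice were left out.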

Other observations

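Beside the members, the other class II windows in RefSeq's table (GRCm38.p6) were read, again with AAC and GATTGG in capitals, to show a spacing outside the searched 26 or 27 bases.
H2-Ob: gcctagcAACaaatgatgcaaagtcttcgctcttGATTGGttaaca
This window lies at chr17:34238813-34238858 on the plus strand, with 24 bases between the capitals, and H2-Oa and H2-Eb2 held the searched spacing. In LR the log2 fold change of H2-Ob was -0.26 (adjusted p = 0.836) and that of H2-Oa was -0.36 (adjusted p = 0.81), while all 8 members had positive values; these differences between genes were not tested. Both had negative values in KN1 (-0.27 and -0.47).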
